A study of Mus musculus with 8 samples.

Results

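Interferon-stimulated genes are the genes that cells switch on when interferon reaches them, and their products sense, cut, trap or tag viral material. The set described here held 39 mouse genes, chosen by symbol: 4 sensors of foreign nucleic acid, 2 transcription factors, 10 effectors that act on RNA, 11 other antiviral effectors, 6 genes of the ISG15 and ADP-ribose systems, 5 guanylate-binding or immunity-related GTPases, and the chemokine gene Cxcl10. Of the 39, the gene-name column of the arrays held 38. In all, 37 were bright enough to test, among 25535 genes tested on the array. They were measured in spontaneous ovarian tumours of female C57BL/6J mice, 4 tumours from Nedd9-null mice and 4 from Nedd9-WT mice, with 1 single-colour Agilent array for each tumour. Nedd9-null mice lack Nedd9, which encodes a scaffold protein of focal adhesions. Nedd9-WT mice keep it. Both genotypes carried the transgene TgMISIIR-TAg, in which the promoter of the Müllerian inhibiting substance type II receptor gene (Amhr2) drives the SV40 T antigen, so every tumour here arose with T antigen and none without it. The labels give no drug, no age and no litter, and they do not say whether tumours of 1 genotype came from related mice. RNA came from whole tumour tissue, so fewer cells of a type and less RNA per cell cannot be told apart.

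Type I interferons bind the receptor made of Ifnar1 and Ifnar2, which activates the kinases JAK1 and TYK2. These lead to the assembly of ISGF3, a complex that holds STAT2 and IRF9 and binds a DNA element named the interferon-stimulated response element. Interferon gamma uses another receptor and a different DNA element, the gamma-activated site. Many interferon-stimulated genes, such as the RNA sensors, IRF7 and STAT2, are themselves parts of the pathway that makes or reads interferon. In tumours the same genes can be driven without a virus, by DNA or RNA of the tumour cells or by infiltrating immune cells.

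Levels are given as log2 of the spot signal minus the 75th percentile of the same array, so that 0 marks the brightness at that percentile; values of a genotype are listed for its replicates 1 to 4, and a difference is the Nedd9-null mean minus the Nedd9-WT mean, in log2 units. The brightest probe of a gene stands for it.

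The Nedd9 transcript had levels of -2.01, -3.50, -3.39 and -4.03 in Nedd9-null tumours, against 1.15, 0.84, 1.30 and 1.85 in Nedd9-WT tumours, with no overlap. The difference was -4.51 (SE 0.44, adjusted p = 0.0281), and the two-sided exact permutation test of the 8 arrays gave p = 0.0286, the smallest its 70 arrangements allow. The limma call was lost without Nedd9-null replicate 2, 3 or 4 or without Nedd9-WT replicate 2, 3 or 4, each left out alone (adjusted p = 0.0876 to 0.124), and the difference stayed between -4.66 and -4.25 in those fits. On each array, 73.0% to 84.6% of probes were well above background. Nedd9-null replicate 1 stood apart from its group. Over all genes tested it correlated at 0.89 to 0.92 with the other Nedd9-null arrays and at 0.94 to 0.97 with the Nedd9-WT arrays. The other 3 Nedd9-null arrays correlated at 0.98 among themselves. The Nedd9 level of replicate 1 was nevertheless below that of every Nedd9-WT tumour, and results are given with and without this tumour. The labels name no slide. If the names of the array scans are read as slides, each genotype was on a slide of its own. On that reading an effect of slide and one of genotype cannot be told apart. Amhr2, whose promoter drives the transgene, was detected above background in all 8 tumours, but its level was not alike in all. It had 6.46, 2.18, 0.29 and 1.64 in Nedd9-null tumours, against 6.11 to 7.04 in Nedd9-WT tumours. The difference was -3.95 (limma, adjusted p = 0.116), or -5.23 (adjusted p = 0.000748) without Nedd9-null replicate 1. Whether the activity of the transgene differed between the tumours was not tested.

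The promoter sequences show the element that interferon signalling is known to use, and where it lies in genes of different roles. Each is the RefSeq window (mouse build GRCm38.p6) from 250 bases before to 50 bases after the annotated gene start, 5′ to 3′ on the gene's strand. Capitals mark matches to TTTCNNTTTC on either strand, the core of the interferon-stimulated response element, with overlapping matches run together. Isg15 (chr4:156200769-156201068, minus strand) encodes the ubiquitin-like protein ISG15, Ifit1 (chr19:34640639-34640938, plus strand) a binder of viral RNA, Oas1a (chr5:120907476-120907775, minus strand) an oligoadenylate synthetase and Igtp (chr11:58199306-58199605, plus strand) an immunity-related GTPase. Irf7 (chr7:141266375-141266674, minus strand) is shown as a window without a match.
Isg15 promoter: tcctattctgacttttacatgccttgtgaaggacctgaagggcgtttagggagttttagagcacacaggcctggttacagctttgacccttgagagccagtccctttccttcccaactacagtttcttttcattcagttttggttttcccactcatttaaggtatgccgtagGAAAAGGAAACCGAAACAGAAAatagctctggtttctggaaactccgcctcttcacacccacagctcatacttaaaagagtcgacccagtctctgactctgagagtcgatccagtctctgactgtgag
Ifit1 promoter: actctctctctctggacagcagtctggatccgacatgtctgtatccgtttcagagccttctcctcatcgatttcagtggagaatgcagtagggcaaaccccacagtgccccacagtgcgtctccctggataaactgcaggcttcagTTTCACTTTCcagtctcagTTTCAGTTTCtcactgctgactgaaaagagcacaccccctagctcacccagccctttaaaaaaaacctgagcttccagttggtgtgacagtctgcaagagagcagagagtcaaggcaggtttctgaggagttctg
Oas1a promoter: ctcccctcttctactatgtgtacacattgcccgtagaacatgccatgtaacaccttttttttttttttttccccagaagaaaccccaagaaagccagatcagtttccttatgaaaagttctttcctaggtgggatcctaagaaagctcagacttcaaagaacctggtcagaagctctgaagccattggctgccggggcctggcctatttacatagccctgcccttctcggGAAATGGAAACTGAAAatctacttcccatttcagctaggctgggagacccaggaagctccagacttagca
Igtp promoter: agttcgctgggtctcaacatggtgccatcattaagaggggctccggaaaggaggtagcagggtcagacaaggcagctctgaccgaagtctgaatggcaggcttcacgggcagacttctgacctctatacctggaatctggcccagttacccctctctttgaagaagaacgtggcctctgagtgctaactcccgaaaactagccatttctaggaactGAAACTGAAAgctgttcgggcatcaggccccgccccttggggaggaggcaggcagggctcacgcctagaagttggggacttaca
Irf7 promoter: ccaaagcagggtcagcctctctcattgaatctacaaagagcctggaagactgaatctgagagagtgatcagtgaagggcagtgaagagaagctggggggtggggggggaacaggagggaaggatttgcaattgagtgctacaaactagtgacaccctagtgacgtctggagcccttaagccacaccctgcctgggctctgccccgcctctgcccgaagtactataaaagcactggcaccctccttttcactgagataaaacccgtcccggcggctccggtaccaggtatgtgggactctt

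In Isg15, matches began 78, 72 and 66 bases before the annotated start and formed 1 continuous run. The Ifit1 matches began 104 and 85 bases before the start and stood apart from each other. In Oas1a they began 20 and 14 bases before the start and overlapped, and the Igtp match began 34 bases before it. Promoter windows were at hand for 27 members, and 17 of these (63%) held at least 1 match, against 1079 of 27025 genes with a window (3.99%). The gamma-activated site core TTCNNNGAA, which reads the same on both strands, was present in the windows of 7 of the 27 members (25.9%), against 9.55% of all genes. A match is a description of the letters and not a bound site, and a window without one says nothing of the factor.

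**Figure D1:**
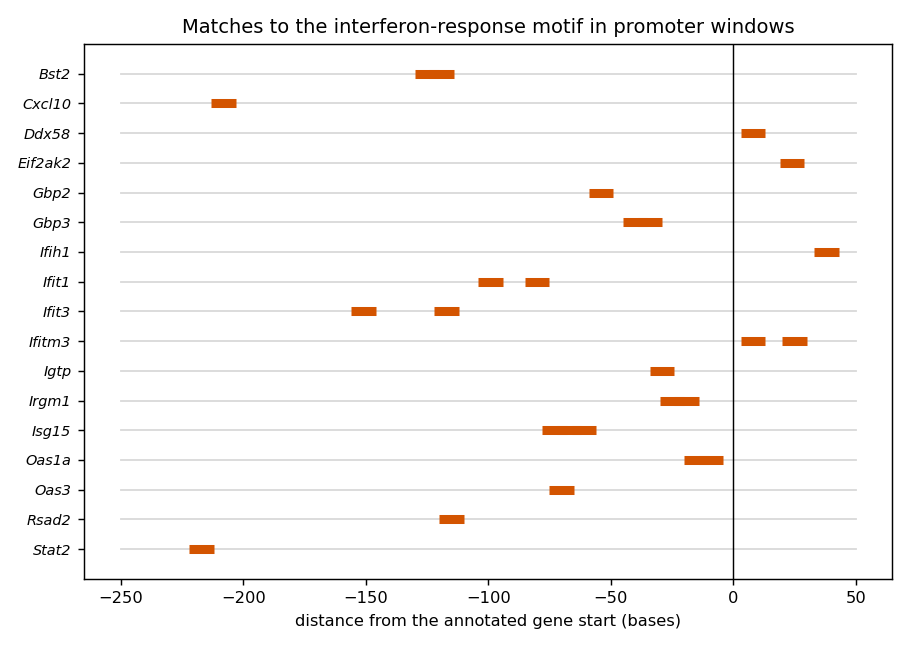
Positions of matches to TTTCNNTTTC, on either strand, in the promoter windows of the 17 member genes that held at least 1. The horizontal axis is the distance in bases from the annotated gene start (0), grey lines are the windows from 250 before to 50 after it, and orange bars are matches, drawn as 1 bar where they overlap. In Ddx58, Eif2ak2, Ifih1 and Ifitm3 the matches lie after the start; in the others they lie before it.

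Differences between the genotypes were set beside these matches. The 17 tested members with a match had a median difference of 1.44, the 9 with a window and no match 1.75, and the 11 without a window had 2.25. Without Nedd9-null replicate 1 the medians were 2.14, 2.42 and 3.30. These medians are descriptions, with no test between the groups.

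The arrays read each gene through short probes, and the probe sequences matter where genes of a family resemble each other. The probes of Ifit1 (chr19:34723796-34723855, plus strand) and Ifitm3 (chr7:148195591-148195650, minus strand) are shown as those of 2 genes with large differences. Both probes of Oas1b are shown because they gave different results, the brightest at chr5:121274109-121274168 and the dimmer at chr5:121273890-121273949, both on the plus strand. Coordinates are those of the array files (mouse build mm9).
Ifit1 probe: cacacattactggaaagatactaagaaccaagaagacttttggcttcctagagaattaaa
Ifitm3 probe: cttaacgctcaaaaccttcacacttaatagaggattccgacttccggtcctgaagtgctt
Oas1b brightest probe: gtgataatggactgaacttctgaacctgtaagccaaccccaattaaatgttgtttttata
Oas1b dimmer probe: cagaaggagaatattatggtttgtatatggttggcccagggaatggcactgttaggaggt

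Every one of the 37 tested members had a higher mean in Nedd9-null tumours than in Nedd9-WT tumours, but none passed the test with all 8 tumours. Of these members, Oas3 and Mx1 passed the brightness filter only through the Nedd9-null arrays, so the filter favoured their direction. The differences of the 37 ran from 0.23 to 3.45 with a median of 1.69, against a median of 0.03 over all genes tested, of which 52.2% had a difference above 0. Differences of 2 or more were found in 15 members (5.2% of all genes). At an adjusted p under 0.05 (limma, Benjamini-Hochberg over all genes) 0 of 37 members passed, against 0.0587% of all genes higher in Nedd9-null tumours and 0.0666% in either direction; the lowest adjusted p among the members was 0.0949, for Cmpk2. At an unadjusted p under 0.05, 20 members were higher and 0 lower, against 13.1% of all genes higher. The genotypes did not overlap in 3 members, Ifih1, Cmpk2 and Iigp1, all higher in Nedd9-null tumours (7.16% of all genes). On the dimmer probes of Ifih1 and Iigp1 the genotypes overlapped, and on that of Cmpk2 they did not.

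Nedd9-null replicate 1 did not share the high levels of the other 3 Nedd9-null tumours. Averaged over the 37 members and set against the Nedd9-WT mean, the levels were -0.22, 2.92, 2.71 and 1.59 in Nedd9-null replicates 1 to 4, against 0.40, -0.55, 0.26 and -0.11 in Nedd9-WT replicates 1 to 4. The level in Nedd9-null replicate 1 fell inside the span of the Nedd9-WT tumours in 27 members, under it in 6 and over it in 4 (Ifih1, Oas1b, Cmpk2 and Iigp1). Over all genes it fell inside that span in 52.0%. Replicates 2, 3 and 4 were the 3 highest of the 8 arrays in 30 of the 37 members, against 13.2% of all genes. Among those 3, replicate 4 was the lowest in all 37 members, against 38.7% of all genes, and replicate 2 gave the highest of the 8 values in 20 members and replicate 3 in 15.

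**Figure D2:**
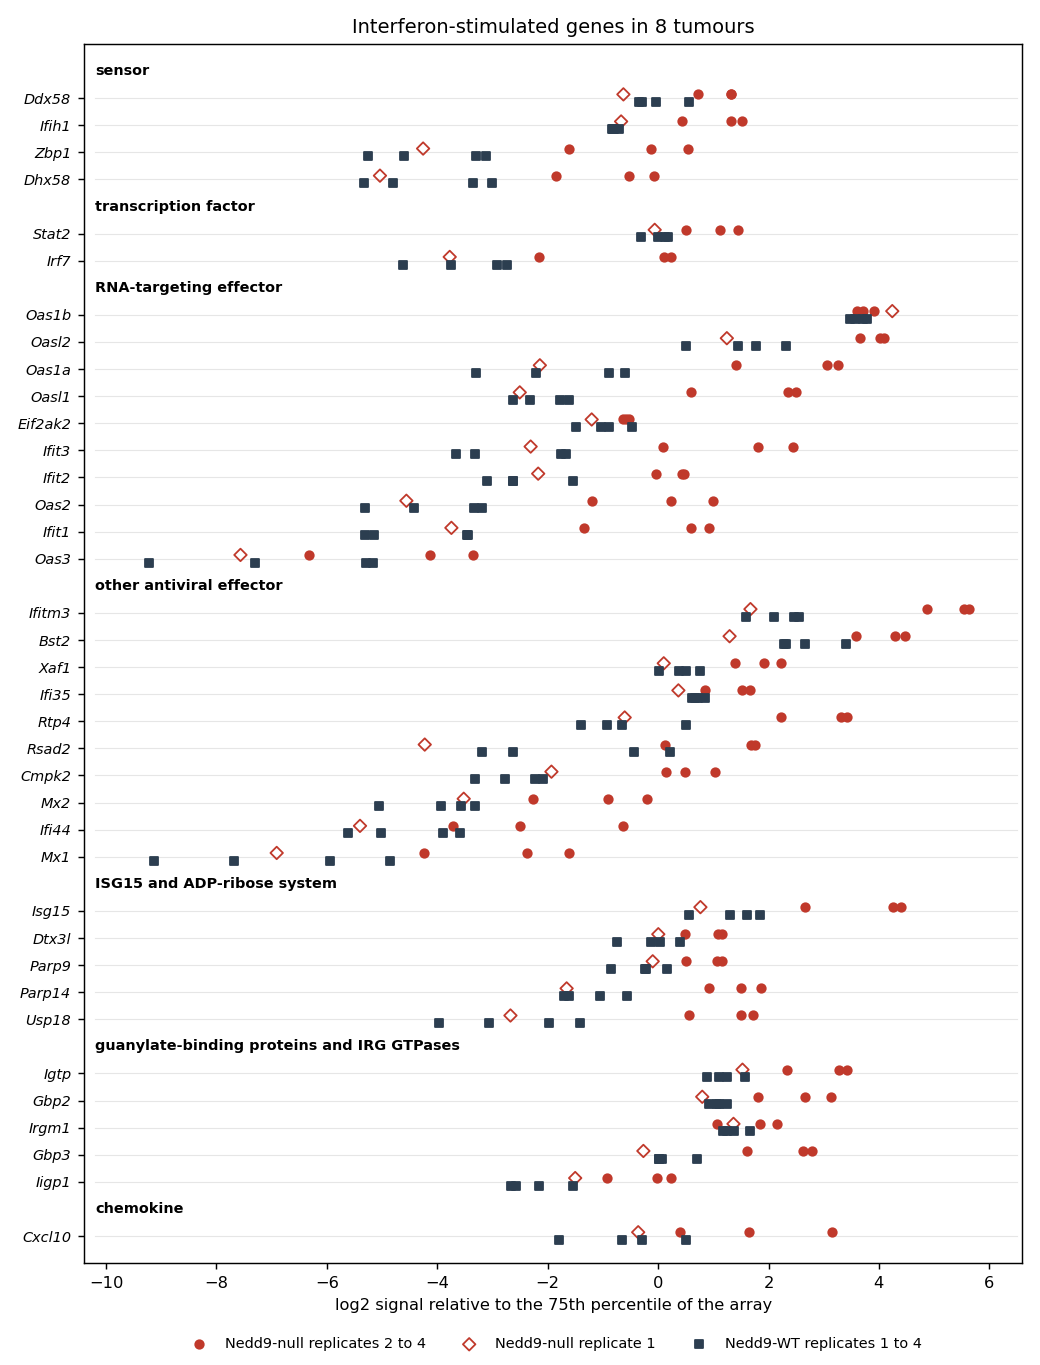
Levels of the 37 tested members in each tumour, as log2 signal relative to the 75th percentile of the array (horizontal axis), grouped by role; red circles are Nedd9-null replicates 2 to 4, open diamonds Nedd9-null replicate 1 and dark squares the 4 Nedd9-WT tumours. In 30 members the 3 circles are the highest values, and in 27 the diamond lies within the span of the squares.

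Without Nedd9-null replicate 1, 28 of the 37 members rose and 0 fell at an adjusted p under 0.05, against 10.3% of all genes higher and 8.37% lower. The median difference was 2.42 (range 0.11 to 4.40), against -0.07 over all genes, and in 30 members the groups did not overlap (16.4% of all genes). The members that did not pass were Oas1b, Oas3, Eif2ak2, Rsad2, Ifi44, Ifi35, Dtx3l, Irgm1 and Cxcl10. Mx1, which did pass, had met the brightness filter only through the Nedd9-null arrays. In this fit the 3 tumours and the 4 Nedd9-WT tumours also differed in 4776 genes, 18.7% of those tested, so that the members are read against a wide difference. Replicate 1 was singled out by its values in these same data. The p-values without it, here and below, make no allowance for that choice. Leaving out any other 1 tumour gave 0 member calls.

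**Figure D3:**
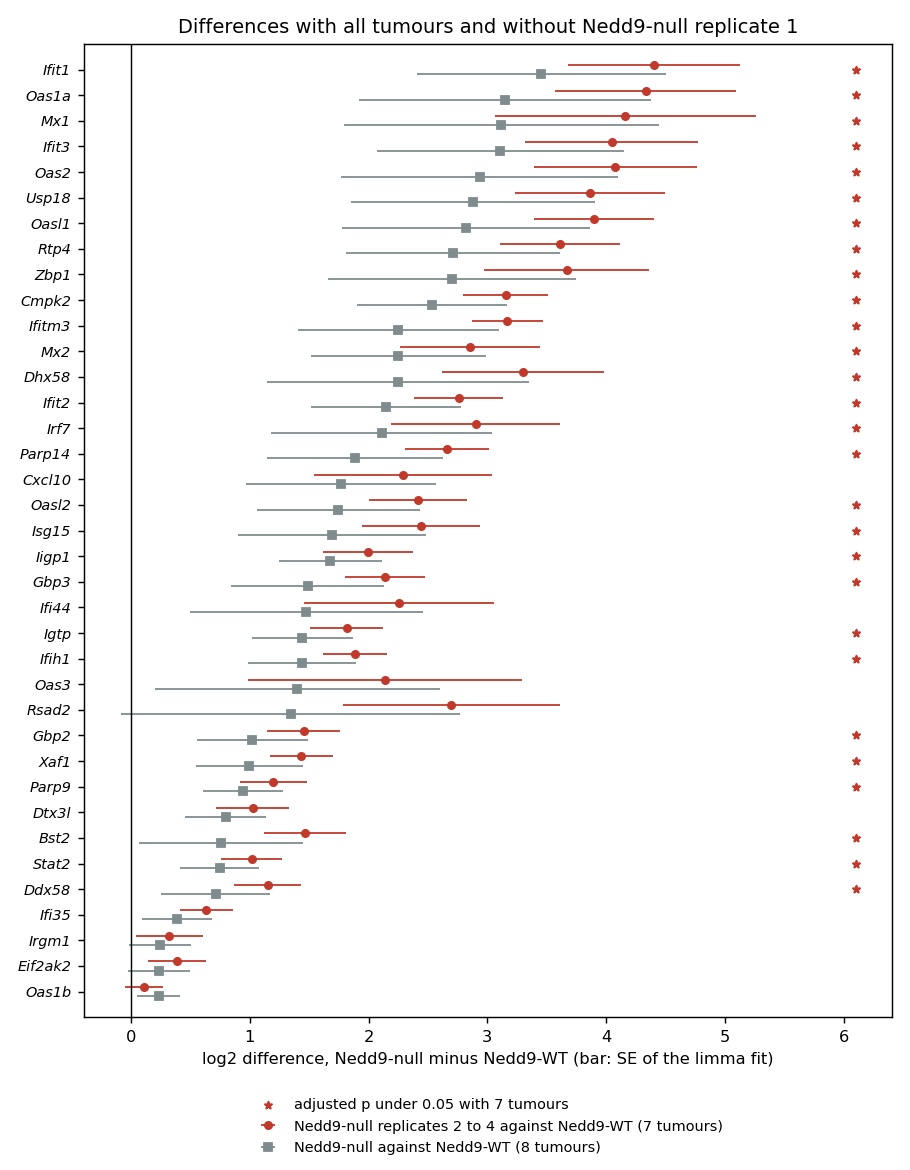
Log2 difference of each tested member, Nedd9-null minus Nedd9-WT, with the SE of the limma fit as bars; red circles leave out Nedd9-null replicate 1 (7 tumours), grey squares use all 8, and stars mark the 28 genes with an adjusted p under 0.05 in the 7-tumour fit. All squares and circles lie above 0, and the circle lies to the right of the square in all genes but Oas1b.

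Of the sensors, 0 of 4 passed with all tumours (2 at an unadjusted p under 0.05) and 4 of 4 rose without Nedd9-null replicate 1, by a median of 2.59 (1.84 with it). For this role and those below, the shares of all genes were 13.1% higher unadjusted with all tumours and 10.3% higher without replicate 1. Ifih1 encodes MDA5, which recognises long double-stranded RNA. Its levels were -0.67, 1.33, 1.52 and 0.44 in Nedd9-null tumours, against -0.71, -0.81, -0.84 and -0.79 in Nedd9-WT tumours. The Nedd9-WT tumours lay close together, Nedd9-null replicate 1 lay just above them and the other 3 well above. The difference was 1.44 (SE 0.46, adjusted p = 0.125), a 2.71-fold higher mean, and 1.88 (SE 0.27, adjusted p = 0.00391) without replicate 1. On the dimmer Ifih1 probe the groups overlapped, with Nedd9-null replicate 1 at -5.55, below Nedd9-WT replicate 1 at -5.43. Ddx58 encodes RIG-I, which recognises RNA with uncapped ends. It had -0.63, 1.32, 1.32 and 0.72 in Nedd9-null tumours, against 0.56, -0.29, -0.04 and -0.35 in Nedd9-WT tumours. Replicate 1 was the lowest of the 8, and the difference was 0.71 (SE 0.46, adjusted p = 0.384), or 1.15 (SE 0.28, adjusted p = 0.0312) without it. Zbp1, a sensor of left-handed nucleic acid that can trigger necroptosis, had -4.26, 0.54, -0.12 and -1.62 in Nedd9-null tumours, against -3.12, -5.25, -3.29 and -4.60 in Nedd9-WT tumours. The 3 high Nedd9-null tumours did not overlap with the others, and replicate 1 fell among the Nedd9-WT values. Its difference was 2.70 (SE 1.04, adjusted p = 0.173), or 3.67 (SE 0.70, adjusted p = 0.0121) without replicate 1. Dhx58, which encodes LGP2, a helicase that tunes the other RNA sensors, differed by 2.25, and by 3.30 (adjusted p = 0.017) without replicate 1.

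Both transcription factors of the set were short of the threshold with all tumours, also at an unadjusted p under 0.05, and rose without Nedd9-null replicate 1. Irf7, the factor that amplifies interferon alpha production, had -3.77, 0.23, 0.11 and -2.16 in Nedd9-null tumours, against -2.92, -4.61, -2.73 and -3.76 in Nedd9-WT tumours. Replicates 2 and 3 stood far above the rest, replicate 4 stood above every Nedd9-WT tumour by less, and replicate 1 fell among the Nedd9-WT values. The difference was 2.11 (SE 0.93, adjusted p = 0.217), a 4.31-fold higher mean, or 2.90 (SE 0.71, adjusted p = 0.0309) without replicate 1. Stat2, the STAT that carries the activating domain of ISGF3, had -0.06, 1.44, 1.11 and 0.50 in Nedd9-null tumours, against 0.18, 0.01, -0.30 and 0.12 in Nedd9-WT tumours. Again the first Nedd9-null tumour was inside the Nedd9-WT span. The difference was 0.74 (SE 0.33, adjusted p = 0.218), or 1.01 (SE 0.26, adjusted p = 0.0348) without it.

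The RNA-targeting effectors held the largest differences of the set, and also 2 of the smallest. With all tumours 0 of 10 passed (7 at an unadjusted p under 0.05, median 2.48), and without Nedd9-null replicate 1, 7 of 10 rose (median 3.33). Ifit1, which binds RNA whose cap lacks the methyl mark of the host, was chosen for its size after the values were seen. It had -3.74, 0.92, 0.60 and -1.33 in Nedd9-null tumours, against -3.46, -5.31, -3.44 and -5.15 in Nedd9-WT tumours. Replicate 1 lay within the Nedd9-WT values, and the other 3 tumours lay above all of them. The means were -0.89 ± 2.15 in Nedd9-null tumours and -4.34 ± 1.03 in Nedd9-WT tumours (SD, n = 4 each), a 10.9-fold difference. On the log2 scale this was 3.45 (SE 1.05, adjusted p = 0.117), or 4.40 (SE 0.73, adjusted p = 0.00681) without replicate 1. Its neighbours on chromosome 19, Ifit2 and Ifit3, differed by 2.14 and 3.11, and by 2.76 (adjusted p = 0.00308) and 4.05 (adjusted p = 0.0098) without it.

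The oligoadenylate synthetases make a short chain of linked adenosines that activates the ribonuclease RNase L. Oas1a had -2.14, 3.26, 3.06 and 1.42 in Nedd9-null tumours, against -0.60, -3.30, -0.89 and -2.22 in Nedd9-WT tumours. The 3 high Nedd9-null tumours were above all others, and the Nedd9-WT tumours themselves spread widely. The difference was 3.15 (SE 1.23, adjusted p = 0.176), or 4.33 (SE 0.76, adjusted p = 0.0088) without replicate 1. Oasl2, an OAS-like protein with ubiquitin-like domains, had 1.25, 4.02, 4.10 and 3.65 in Nedd9-null tumours, against 0.51, 2.31, 1.76 and 1.45 in Nedd9-WT tumours. It differed by 1.75 (SE 0.69, adjusted p = 0.179), or 2.42 (SE 0.41, adjusted p = 0.00777) without replicate 1, which alone of the Nedd9-null tumours lay in the Nedd9-WT range. Oas2 differed by 2.93 and Oasl1, a translational repressor of Irf7 in mice, by 2.82; without replicate 1 the differences were 4.08 (adjusted p = 0.00737) and 3.90 (adjusted p = 0.00264). Oas3 was well above background on 3 Nedd9-null and 2 Nedd9-WT arrays, and its difference of 1.40 (SE 1.20, adjusted p = 0.52), or 2.14 (adjusted p = 0.25) without replicate 1, passed neither test. Eif2ak2, which encodes the double-stranded RNA-activated kinase PKR and was chosen after its values were seen, had -1.20, -0.59, -0.53 and -0.64 in Nedd9-null tumours, against -0.48, -1.04, -0.90 and -1.48 in Nedd9-WT tumours. The groups overlapped, the highest value belonged to a Nedd9-WT tumour, and the difference was 0.23 (SE 0.26, adjusted p = 0.623), or 0.39 (adjusted p = 0.321) without replicate 1.

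Oas1b, the flavivirus resistance gene that carries a premature stop codon in C57BL/6 and most other laboratory strains, depended on the probe. Its brightest probe had 4.24, 3.72, 3.90 and 3.60 in Nedd9-null tumours, against 3.79, 3.56, 3.48 and 3.71 in Nedd9-WT tumours. All 8 values lay close together, Nedd9-null replicate 1 was the highest, and the difference was 0.23 (SE 0.18, adjusted p = 0.487). This probe overlaps by 43 bases with the probe of another listed transcript on the same strand, and 5 probes with other names on the array share a run of at least 16 bases with it. The dimmer probe had -2.30, -1.05, -1.27 and -2.00 in Nedd9-null tumours, against -2.22, -2.73, -2.93 and -2.19 in Nedd9-WT tumours. Its difference was 0.86 (SE 0.33), and without replicate 1 it was 1.07 with an adjusted p of 0.0477 over all probes, while the brightest probe gave 0.11 (0.696). Whether the 2 probes read different transcripts was not tested.

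Of the 11 with 2 usable probes, the dimmer probe was also higher in Nedd9-null tumours in all 11. Fitted over probes without Nedd9-null replicate 1, 9 dimmer and 8 brightest probes of these genes passed, with Oas1b making up the 1 in which the dimmer alone passed. In the fits over genes, 52.2% of all genes were above 0 with all tumours and 10.3% were called higher without replicate 1. Both probes of a gene were read on the same arrays, so they are not independent measurements.

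**Figure D4:**
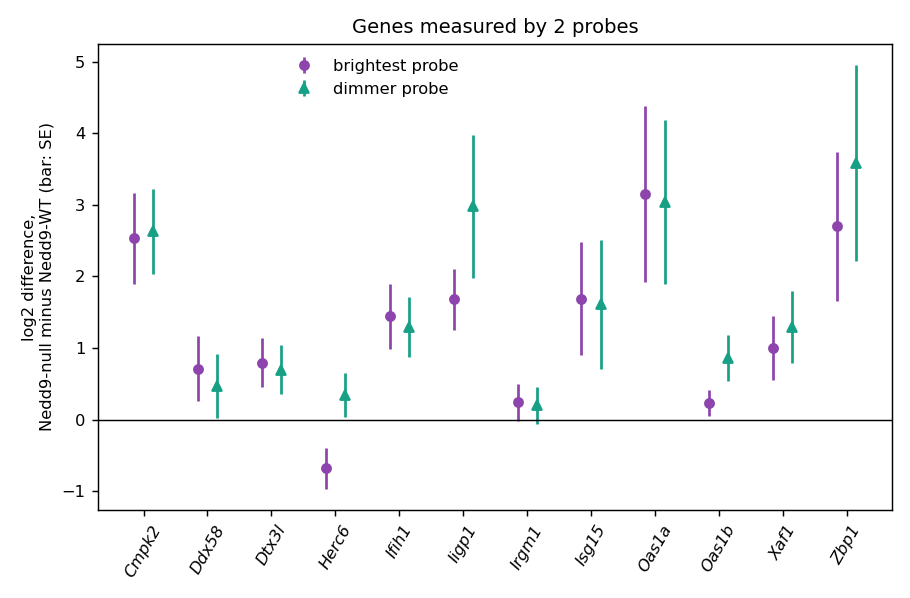
Log2 difference, Nedd9-null minus Nedd9-WT with all 8 tumours, for the brightest (purple circles) and the dimmer probe (green triangles) of each gene with 2 usable probes; bars are the SE of the fit. Both probes lie above 0 in the 11 tested members, and in Herc6 the brightest lies below 0 at -0.68 and the dimmer above it at 0.34.

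Of the other antiviral effectors, 0 of 10 tested passed with all tumours (5 at an unadjusted p under 0.05, median 1.86) and 7 of 10 rose without Nedd9-null replicate 1 (median 2.77). Ifitm3, a membrane protein that blocks virus entry at the endosome, had 1.67, 5.62, 5.53 and 4.88 in Nedd9-null tumours, against 2.55, 2.10, 1.60 and 2.46 in Nedd9-WT tumours. The 3 high Nedd9-null tumours were more than 2 log2 units above every other tumour, and replicate 1 was among the Nedd9-WT values. The difference was 2.25 (SE 0.85, adjusted p = 0.166), and without replicate 1 it was 3.17 (SE 0.30, adjusted p = 0.000815), the lowest adjusted p of the members in that fit. Bst2, which encodes tetherin, a tie that holds budding virus to the cell, had 1.29, 4.30, 4.48 and 3.59 in Nedd9-null tumours, against 2.65, 3.40, 2.28 and 2.32 in Nedd9-WT tumours. Replicate 1 was the lowest of all 8, and the difference was 0.75 (SE 0.69, adjusted p = 0.548), or 1.46 (SE 0.35, adjusted p = 0.0278) without it. Xaf1, a pro-apoptotic antagonist of XIAP, had 0.10, 1.92, 2.22 and 1.40 in Nedd9-null tumours, against 0.76, 0.51, 0.37 and 0.01 in Nedd9-WT tumours. Its difference was 1.00 (SE 0.45, adjusted p = 0.225), or 1.43 (SE 0.26, adjusted p = 0.0107) without replicate 1, which fell within the Nedd9-WT range.

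Cmpk2 and Rsad2 are neighbours on chromosome 12 and act on nucleotides: Cmpk2 is a mitochondrial nucleotide kinase, and Rsad2 encodes viperin, which makes a chain-terminating nucleotide. Cmpk2 had -1.93, 0.48, 1.03 and 0.15 in Nedd9-null tumours, against -2.22, -2.08, -3.31 and -2.77 in Nedd9-WT tumours. Here replicate 1 also lay above all Nedd9-WT tumours, though only just. The means were -0.07 ± 1.30 in Nedd9-null tumours and -2.60 ± 0.56 in Nedd9-WT tumours (SD, n = 4 each), the difference 2.53 (SE 0.63, adjusted p = 0.0949) and the fold 5.78, and without replicate 1 the difference was 3.15 (SE 0.36, adjusted p = 0.00162). Rsad2, chosen after its values were seen, had -4.23, 1.68, 1.75 and 0.13 in Nedd9-null tumours, against -2.63, -3.19, -0.44 and 0.21 in Nedd9-WT tumours. Replicate 1 had the lowest level of the 8, Nedd9-WT replicate 4 was above Nedd9-null replicate 4, and the difference was 1.34 (SE 1.43, adjusted p = 0.61), or 2.69 (adjusted p = 0.0874) without replicate 1.

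Among the rest of these effectors, Mx1, a dynamin-like GTPase that traps viral nucleocapsids, differed by 3.12, and by 4.16 (adjusted p = 0.0403) without Nedd9-null replicate 1. It was well above background on 4 Nedd9-null arrays and 2 Nedd9-WT arrays, so it passed the brightness filter only through the Nedd9-null arrays. C57BL/6 mice carry a deletion in this gene, so that a transcript signal is no measure of the protein. Mx2 differed by 2.25 and Rtp4, a chaperone-like transporter protein, by 2.71, and both rose without replicate 1, by 2.85 and 3.61. Ifi44 and Ifi35, interferon-induced proteins, differed by 1.48 and 0.39 and passed in neither fit (without replicate 1, adjusted p = 0.0984 and 0.0963). Epsti1 was not tested: it was well above background on 2 Nedd9-null arrays and 0 Nedd9-WT arrays, with means of -6.84 in Nedd9-null tumours and -8.47 in Nedd9-WT tumours. The Nedd9-WT values were also raised to the lowest signal well above background on each array, where the probe's own signal was lower. Against these the Nedd9-null mean of Epsti1 was 1.57-fold higher. That mean includes arrays on which the probe was not well above background, so it sets no lower bound and no direction is read from it.

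The ISG15 and ADP-ribose genes had 0 of 5 past the threshold with all tumours (4 at an unadjusted p under 0.05, median 1.69) and 4 of 5 that rose without Nedd9-null replicate 1 (median 2.44). ISG15 is attached to proteins like ubiquitin, and USP18 removes it and also holds back signalling from the interferon receptor. Isg15 had 0.77, 4.26, 4.40 and 2.66 in Nedd9-null tumours, against 1.85, 0.56, 1.61 and 1.31 in Nedd9-WT tumours. Replicates 2 and 3 were highest, replicate 4 was above all Nedd9-WT tumours by a smaller margin, and replicate 1 was near the low end of the Nedd9-WT range. The difference was 1.69 (SE 0.79, adjusted p = 0.241), a 3.22-fold higher mean, or 2.44 (SE 0.50, adjusted p = 0.0163) without replicate 1. A probe of another name shares a run of at least 16 bases with this one, and the second Isg15 probe, with no such run, differed by 1.61. Usp18 differed by 2.88, and by 3.86 (adjusted p = 0.00663) without replicate 1.

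Parp9 and Dtx3l form a complex that joins ADP-ribosylation to ubiquitin transfer. Parp9 had -0.10, 1.06, 1.16 and 0.51 in Nedd9-null tumours, against 0.16, -0.21, -0.85 and -0.24 in Nedd9-WT tumours. It differed by 0.94 (SE 0.34, adjusted p = 0.151), or 1.20 (SE 0.28, adjusted p = 0.028) without replicate 1. Dtx3l had 0.00, 1.16, 1.08 and 0.50 in Nedd9-null tumours, against 0.40, 0.04, -0.74 and -0.14 in Nedd9-WT tumours. Its difference of 0.80 (SE 0.34, adjusted p = 0.205) was 1.02 (SE 0.31, adjusted p = 0.0616) without replicate 1, so that it missed the threshold although the 3 remaining Nedd9-null tumours lay above all Nedd9-WT tumours. Parp14, a further ADP-ribosyltransferase beside them on chromosome 16, differed by 1.89, and by 2.66 (adjusted p = 0.00292) without replicate 1.

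Herc6, the main ligase that attaches ISG15 in mice, gave no single direction. Its 2 probes carry the name Herc5 in the array files and were named Herc6 through the RefSeq accession, so that it stays outside the counts of members. The brightest probe had -2.37, -1.94, -2.35 and -3.25 in Nedd9-null tumours, against -1.78, -1.91, -1.99 and -1.52 in Nedd9-WT tumours. Nedd9-null replicate 4 was the lowest and the difference was -0.68 (SE 0.29, adjusted p = 0.201), or -0.72 (adjusted p = 0.172) without replicate 1. The other probe had -3.02, -2.07, -2.14 and -2.89 in Nedd9-null tumours, against -2.55, -3.11, -3.35 and -2.48 in Nedd9-WT tumours. Its difference was 0.34 (SE 0.31), so the probes differed in sign, and neither value passed the test.

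The GTPases attack the vacuoles in which intracellular microbes live and are known as targets of interferon gamma as well as of type I interferon. With all tumours 0 of 5 passed (2 at an unadjusted p under 0.05, median 1.44), and 4 of 5 rose without Nedd9-null replicate 1 (median 1.81). Igtp had 1.53, 3.28, 3.42 and 2.34 in Nedd9-null tumours, against 1.25, 1.57, 0.88 and 1.10 in Nedd9-WT tumours. The 3 high tumours were clear of the others, and replicate 1 was just under the highest Nedd9-WT tumour. The difference was 1.44 (SE 0.43, adjusted p = 0.114), or 1.81 (SE 0.31, adjusted p = 0.00772) without replicate 1. Gbp2, a guanylate-binding protein, had 0.80, 3.13, 2.66 and 1.82 in Nedd9-null tumours, against 1.10, 1.07, 1.25 and 0.92 in Nedd9-WT tumours. Replicate 1 was the lowest of the 8 and the Nedd9-WT values were tightly grouped. The difference was 1.02 (SE 0.47, adjusted p = 0.233), or 1.45 (SE 0.31, adjusted p = 0.0185) without replicate 1. Its neighbour Gbp3 differed by 1.48, and by 2.14 (adjusted p = 0.00574) without it.

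Irgm1, a regulatory member of the same GTPase family, had 1.37, 2.14, 1.84 and 1.07 in Nedd9-null tumours, against 1.67, 1.24, 1.38 and 1.17 in Nedd9-WT tumours. Nedd9-null replicate 4 was the lowest of all 8 tumours, the groups overlapped, and the difference was 0.24 (SE 0.26, adjusted p = 0.616), or 0.32 (adjusted p = 0.487) without replicate 1. Iigp1, an effector GTPase, had -1.50, 0.23, -0.03 and -0.93 in Nedd9-null tumours, against -1.54, -2.66, -2.57 and -2.16 in Nedd9-WT tumours. On this brightest probe all 4 Nedd9-null tumours were above all Nedd9-WT tumours, replicate 1 by the least and only just. The difference was 1.68 (SE 0.43, adjusted p = 0.0974), or 1.99 (SE 0.38, adjusted p = 0.0118) without replicate 1. On the dimmer probe the groups overlapped, with Nedd9-null replicate 1 at -5.14, below Nedd9-WT replicate 1 at -3.62.

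Cxcl10, a chemokine that draws CXCR3-bearing T cells and NK cells, had -0.36, 3.15, 1.65 and 0.40 in Nedd9-null tumours, against -0.66, -1.80, -0.28 and 0.50 in Nedd9-WT tumours. Nedd9-null replicate 2 was the highest, and Nedd9-WT replicate 4 was above Nedd9-null replicates 1 and 4. The difference was 1.77 (SE 0.80, adjusted p = 0.227), or 2.29 (SE 0.75, adjusted p = 0.0784) without replicate 1, and it passed neither test.

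Among the genes that make, receive and relay interferon, 0 of 11 interferon genes, 2 of 6 receptor genes and 3 of 10 JAK-STAT and interferon regulatory factor genes passed without Nedd9-null replicate 1, against 18.7% of all genes. Of the 11 interferon genes tested, 0 passed in either limma fit (0 at an unadjusted p under 0.05 with all tumours), with a median difference of 0.21 with all tumours and 0.06 without Nedd9-null replicate 1. Ifnb1, the first interferon made in many cells, was well above background on 1 Nedd9-null and 1 Nedd9-WT array, Ifna4 and Ifne on 0 arrays, and Ifng on 2 Nedd9-null and 0 Nedd9-WT arrays. These 4 were not tested. The interferon alpha genes are close copies of each other, so their probes may read more than 1 of them.

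Of the 6 receptor genes, 0 passed with all tumours (at an unadjusted p under 0.05, 0 higher and 2 lower), and without Nedd9-null replicate 1, 1 rose and 1 fell. Ifnlr1, the receptor chain for interferon lambda that epithelial cells carry, had -4.38, 0.16, -0.11 and -0.12 in Nedd9-null tumours, against -3.40, -3.28, -3.12 and -1.76 in Nedd9-WT tumours. The 3 high tumours were near 0 and all others lower. It differed by 1.77 (SE 1.02, adjusted p = 0.328), or 2.86 (SE 0.41, adjusted p = 0.00382) without replicate 1. Ifngr2, a chain of the interferon gamma receptor, differed by -0.87 (SE 0.28, adjusted p = 0.131), or -1.07 (adjusted p = 0.0258) without replicate 1. The type I receptor chains Ifnar1 and Ifnar2 differed by 0.30 and -0.27 with all tumours (adjusted p = 0.488 and 0.615).

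Of 10 JAK-STAT and interferon regulatory factor genes, 0 passed with all tumours (unadjusted, 2 higher and 2 lower), and without Nedd9-null replicate 1, 2 rose and 1 fell. Irf9, the DNA-binding part of ISGF3, had 1.05, 2.34, 2.42 and 1.64 in Nedd9-null tumours, against 0.34, 0.16, -0.16 and 0.50 in Nedd9-WT tumours. No Nedd9-null tumour was as low as any Nedd9-WT tumour. The difference was 1.65 (SE 0.33, adjusted p = 0.0789), or 1.93 (SE 0.26, adjusted p = 0.00295) without replicate 1. The kinase genes Jak2 and Jak1 differed by 0.96 and -0.76, and without replicate 1 by 1.18 (adjusted p = 0.00971) and -0.97 (adjusted p = 0.00714). Irf1, a target of interferon gamma, differed by -0.09 (SE 0.18, adjusted p = 0.81) and Irf3, which is activated by phosphorylation, by -0.12 (SE 0.18, adjusted p = 0.732).

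Of 17 genes of upstream sensing pathways outside the set, 0 passed with all tumours (unadjusted, 3 higher and 2 lower). Without Nedd9-null replicate 1, 6 rose and 1 fell, against 10.3% of all genes higher and 8.37% lower. Tlr4, the lipopolysaccharide receptor, had -4.53, 0.30, -0.09 and -0.07 in Nedd9-null tumours, against -2.88, -4.39, -3.57 and -3.89 in Nedd9-WT tumours. As in Ifnlr1, the 3 high tumours were near 0 and the rest far below. It differed by 2.58 (SE 1.05, adjusted p = 0.188), or 3.73 (SE 0.35, adjusted p = 0.000801) without replicate 1. Sting1, the adaptor of cytosolic DNA sensing, differed by 1.04, and by 1.65 (adjusted p = 0.00294) without replicate 1, while Cgas, the DNA sensor upstream of it, differed by -0.36 and -0.30 (adjusted p = 0.518). Tlr3, Ikbke, Traf3 and Adar also rose without replicate 1, by 1.23, 1.38, 0.83 and 0.82, and Tlr9 fell by 0.58 on the log2 scale. Of 9 genes listed as inhibitors and further interferon targets, 0 passed with all tumours (also 0 unadjusted), and 1 rose without replicate 1, the phosphatase gene Ptpn6, by 2.01 (adjusted p = 0.0391).

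Markers of cell types were measured in the same tumours. Of 23 leukocyte markers tested, 0 passed in either fit (1 higher at an unadjusted p under 0.05 with all tumours), with a median difference of 0.06 (0.19 without Nedd9-null replicate 1). With all tumours 13 were higher and 10 lower, from -0.51 to 1.47. The highest was the T cell marker Cd3g, well above background on 3 Nedd9-null arrays and 1 Nedd9-WT array. The mean level of the 23 markers, set against the Nedd9-WT mean, was 0.00, 0.92, 0.23 and -0.13 in Nedd9-null replicates 1 to 4, against 0.08, -0.70, 0.22 and 0.40 in Nedd9-WT replicates 1 to 4. Ptprc, which marks all leukocytes, differed by 0.07 (SE 0.51, adjusted p = 0.95), a sign that turned with median scaling (-0.12) and quantile scaling (-0.14), and the natural killer marker Ncr1 was well above background on 0 arrays. Of 12 ciliated cell markers, 0 passed with all tumours (12 unadjusted) and 12 rose without replicate 1; their mean levels were 1.32, 5.56, 6.11 and 6.28 in Nedd9-null tumours, against 1.71, -0.79, -0.64 and -0.28 in Nedd9-WT tumours. Of 8 ovarian stromal and follicle cell markers, 0 passed with all tumours (6 lower unadjusted) and 5 fell without it, with mean levels of -0.76, -3.09, -4.86 and -4.93 in Nedd9-null tumours, against -0.23, 0.76, -0.40 and -0.13 in Nedd9-WT tumours. The other direction was seen in 1 of the 8, Foxl2, with a difference of 0.25 (SE 0.18, adjusted p = 0.419). Of 10 epithelial markers, 0 passed with all tumours (3 higher unadjusted) and 4 rose without replicate 1, with mean levels of -0.37, 2.11, 2.25 and 1.36 in Nedd9-null tumours, against -0.42, 0.65, -0.40 and 0.17 in Nedd9-WT tumours. The ciliated cell gene Foxj1 differed by 6.58 (SE 1.02, adjusted p = 0.0596). Amhr2, whose promoter drives the transgene, differed by -3.95 (SE 1.19, adjusted p = 0.116). Without replicate 1 these were 7.19 (SE 0.99, adjusted p = 0.00332) and -5.23 (SE 0.48, adjusted p = 0.000748). Some ciliated cell markers counted as higher passed the brightness filter only through the Nedd9-null arrays. Some stromal and follicle cell markers counted as lower passed it only through the Nedd9-WT arrays, so the filter favoured their direction. Of all genes, 10.3% were called higher and 8.37% lower without replicate 1. The part of cell makeup in the members' differences was not tested.

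**Figure D5:**
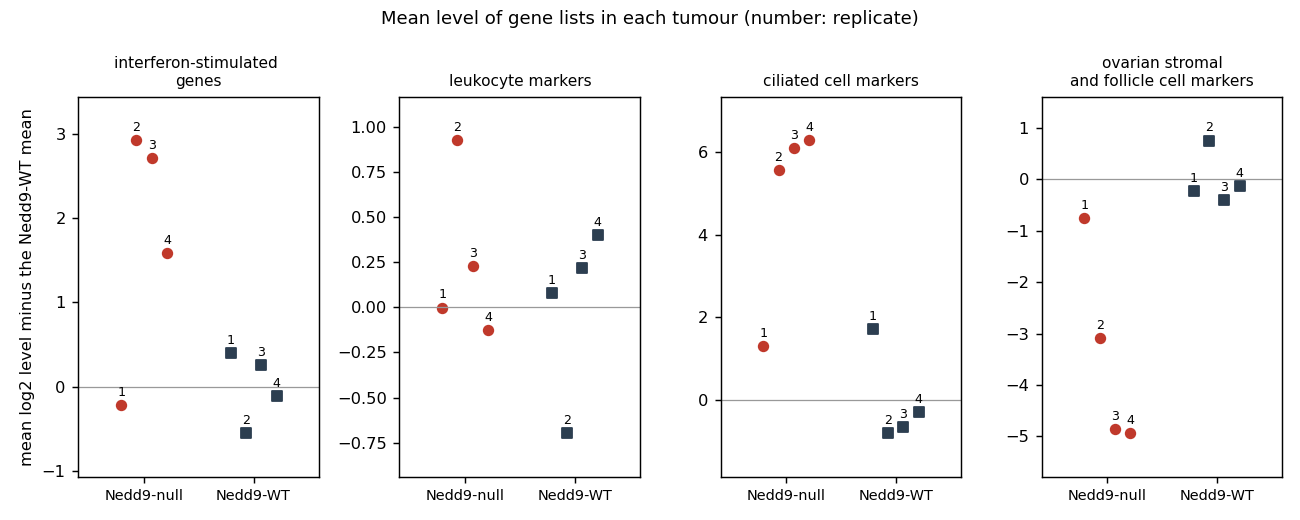
Mean log2 level of each gene list in each tumour minus the Nedd9-WT mean (vertical axes, which differ between panels), for the interferon-stimulated genes and for leukocyte, ciliated cell, and ovarian stromal and follicle cell markers; numbers are replicates, circles Nedd9-null and squares Nedd9-WT tumours. Nedd9-null replicate 1 lies near the Nedd9-WT tumours in the interferon, leukocyte and stromal panels, and in the ciliated panel it lies below replicates 2 to 4 and beside Nedd9-WT replicate 1.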

How the data were processed

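RNA of 8 tumours (500 ng each) was labelled with Cy3 and hybridised to Agilent arrays. Per the file headers, the authors' scanner software, Agilent Feature Extraction 9.5.3, subtracted background, detrended the signal and gave 1 intensity for each spot with no scaling between arrays; the deposited value table, on a log2 scale per its values, was an alternative source. Outlier spots were dropped, spots averaged per probe and log2 taken of the intensity over the 75th percentile of each array. A probe was kept when 3 or more of the 4 arrays of a genotype had it well above background (31783 probes), and the brightest was used for each of 25535 genes, named through RefSeq where possible. Genotype differences were fitted in R 4.3.3 by limma 3.58.1 (lmFit and eBayes), two-sided, with Benjamini-Hochberg adjustment over all genes, after the steps were tested on simulated data. The simulated noise was independent and of equal spread on all arrays, so it held no tumour that stood apart from its group. The number of arrays limits the precision here, and p-values measure the spread between these tumours, which the labels give as 4 per genotype.

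The members and gene lists were chosen with earlier results of these data known. Of the JAK-STAT and interferon regulatory factor list, 1 gene is not reported here and is left out of its counts. Full values were given for the 3 members of each role with the highest mean level and for those whose groups did not overlap, and otherwise as stated; genes of the pathway lists could be named freely, and of each marker list its first 4 markers and the 4 with the smallest p. Alternatives changed the background correction, source, scaling, filter, probe choice, array weights, replicate block and the tumours included. Same-numbered tumours did not deviate together (correlations -0.05, -0.23, -0.04 and -0.09), so replicate numbers were not taken as pairs. The labels differ on whether tumours had reached or stayed under a set volume at sacrifice.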

Additional observations from a re-analysis of the deposited data

Results flagged for a closer look

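In groups of 4 tumours, 1 value far from the other 3 was looked for in 124 groups, and 7 were found, where chance flags about 1 in 20 groups. Among the members, Oasl2 in Nedd9-null replicate 1 was 1.25, below the other Nedd9-null tumours at 3.65 to 4.10, and Gbp3 in Nedd9-WT replicate 3 was 0.71, above the other Nedd9-WT tumours at 0.01 to 0.07. Among the pathway genes, Nedd9-null replicate 1 was far below its group in Ifnlr1 (-4.38, against -0.12 to 0.16) and in Tlr4 (-4.53, against -0.09 to 0.30), lower than its group in Traf3 (0.77, where the other 3 were at 1.42 or more) and higher in Tlr9 (0.30, against -0.26 to -0.23). Ifngr1 in Nedd9-WT replicate 1 was 1.74, against 1.63 to 1.65 in the other Nedd9-WT tumours.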

How the results depend on the processing

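The direction of every tested member was the same under all 17 alternatives (35 members passed the filter that asks for all 8 arrays), including scaling by the median, which moved the median of all genes to -0.16. Of the members' calls, 28 were made with array weights, where Nedd9-null replicate 1 had the lowest weight (0.23), and 0 to 28 with 1 tumour left out, 28 of them without that replicate and 0 without any other tumour. All genes gave 17 calls, against 4 with median scaling, 4 with quantile scaling, 7 with all 8 arrays above background, 5983 with array weights, 0 with the replicate block and 0 to 4776 with 1 tumour left out (leaving out Nedd9-null replicate 1 gave 4776, Nedd9-WT replicate 1 gave 42, Nedd9-null replicate 4 gave 2 and each other tumour 0). Higher calls were 15 of the 17, 50% with median scaling, 53.2% with array weights and 55.2% without Nedd9-null replicate 1. Nedd9 was -4.51 with the replicate block but lost its call (adjusted p = 0.217), and ranged from -4.92 to -4.25 with 1 tumour left out, where the call was lost without Nedd9-null replicates 2, 3 or 4 or Nedd9-WT replicates 2, 3 or 4 (adjusted p = 0.0876 to 0.124). With array weights, calls were 2 in receptors, 3 in JAK-STAT genes, 7 in sensing, 1 in inhibitors, 12 in ciliated, 6 in stromal and follicle and 5 in epithelial markers; with 1 tumour left out they ranged from 0 to 2, 0 to 3, 0 to 7, 0 to 1, 0 to 12, 0 to 5 and 0 to 4 in that order. Irf1 turned to 0.0039 with array weights and ranged from -0.19 to 0.0107 with 1 tumour left out. Ptprc turned to -0.13 in the deposited table, -0.12 with median scaling and -0.14 with quantile scaling, and ranged from -0.29 to 0.42 with 1 tumour left out. With the replicate block, 0 members passed, the same count as with all tumours and no block, and no blocked fit was made without Nedd9-null replicate 1. The causes were not tested. Dim probes, such as those of Oas3, Mx1 and Epsti1, limit what can be read at low signal.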
